A study of Mus musculus with 10 samples.

Results

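The genes described here encode 7 enzymes of cholesterol synthesis: Hmgcs1, Fdft1, Sqle, Lss, Cyp51, Tm7sf2 and Dhcr7. The 7 genes were chosen with earlier results of these data known, so the counts below describe them and do not test them. Their 18 probe sets were found by gene symbol, out of 45265 on a pair of Affymetrix mouse array designs that together measured 18193 genes. All 7 belong to synthesis, and none of them is an uptake gene. Sterol uptake is covered below only by a separate list of transport genes.

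The study sought genes for chromosome segregation in the first meiotic division. RNA came from C57BL/6 male mice, with no transgene or treatment named. The 3 germ cell groups were cells collected from Percoll density gradients of testes in the first round of spermatogenesis: spermatogonia from fraction 2 at day 8, leptotene and zygotene spermatocytes (L/Z) from fraction 5 at day 12, and pachytene spermatocytes from fraction 8 at day 15. The other groups were whole testis at day 15 and a pool of 11 somatic tissues at day 15, which did not include testis. These fractions are enriched populations, not pure ones, and age changes along with stage. A group's 2 samples went onto different array designs, which carry different probe sets. A gene was therefore read from 1 array per group, and whether paired samples came from separate cell preparations is not stated.

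Signals were scaled so that all 5 arrays of a design had the same 2% trimmed mean. A signal floor was set at 87.2 on the first design and at 47.0 on the second, and values below it were treated as not measured. The floor on the first design was the 90th percentile of 72 probe sets for chemosensory receptors. The second design had 15 of these, under the minimum of 20, and there the median signal was used. Differences are given on the log2 scale. The error of a difference (± below) came from 100 probe sets carried by both designs. A difference counts as higher or lower here when it passed the 95% limit that this error gives. The same error was used for all genes of a comparison, whatever their signal, and was not checked for dim probe sets. Passing the limit is thus not a test of a single gene. The error reflects how far the 2 samples of a group differed, which may be technical, since no source says that they came from separate animals. A stricter call required 4-fold.

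Animal cells make cholesterol from acetyl-CoA in 2 stretches. The mevalonate stretch runs from HMG-CoA synthase (Hmgcs1) to farnesyl diphosphate, which also feeds dolichol, ubiquinone and protein prenylation. Squalene synthase (Fdft1) commits farnesyl diphosphate to sterols, squalene epoxidase (Sqle) and lanosterol synthase (Lss) form the first sterol, and lanosterol demethylase (Cyp51), sterol reductase Tm7sf2 and the last-step enzyme Dhcr7 turn it into cholesterol. When sterol is scarce, SCAP escorts SREBP transcription factors to the Golgi, where the proteases Mbtps1 and Mbtps2 release them; their active part binds sterol regulatory elements in promoters of these genes, and INSIG proteins hold SCAP back when sterol is abundant. In testis the products of Cyp51 and Tm7sf2 are known as meiosis-activating sterols.

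Promoters of 5 of the enzymes are printed because they show which of them hold sterol regulatory element and CCAAT box letters: 4 of genes that were lower in pachytene than in L/Z cells (Hmgcs1, Lss, Cyp51, Dhcr7) and 1 of a gene that stayed within the error (Tm7sf2). They are RefSeq sequences of GRCm38.p6, 300 bases each, from 250 bases before to 50 bases after the start site, 5′ to 3′ in the direction of the gene. Capitals mark matches on either strand to TCACNCCAC, to the looser TCACNNCA, which lies within it, and to CCAAT.
Hmgcs1, chr13:119690101-119690400, plus strand: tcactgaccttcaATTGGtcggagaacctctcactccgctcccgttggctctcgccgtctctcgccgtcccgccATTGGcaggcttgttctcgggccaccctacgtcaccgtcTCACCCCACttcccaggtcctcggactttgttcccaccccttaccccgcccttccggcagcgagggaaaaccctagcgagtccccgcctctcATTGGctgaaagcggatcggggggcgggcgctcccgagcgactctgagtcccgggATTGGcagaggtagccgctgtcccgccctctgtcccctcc
Lss, chr10:76531355-76531654, plus strand: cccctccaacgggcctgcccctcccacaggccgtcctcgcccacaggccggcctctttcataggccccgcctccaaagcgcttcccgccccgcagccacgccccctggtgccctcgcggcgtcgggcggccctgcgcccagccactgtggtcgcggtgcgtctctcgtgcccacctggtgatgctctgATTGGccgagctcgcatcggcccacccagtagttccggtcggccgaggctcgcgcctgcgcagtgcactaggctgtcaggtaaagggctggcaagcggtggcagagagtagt
Cyp51, chr5:4104648-4104947, minus strand: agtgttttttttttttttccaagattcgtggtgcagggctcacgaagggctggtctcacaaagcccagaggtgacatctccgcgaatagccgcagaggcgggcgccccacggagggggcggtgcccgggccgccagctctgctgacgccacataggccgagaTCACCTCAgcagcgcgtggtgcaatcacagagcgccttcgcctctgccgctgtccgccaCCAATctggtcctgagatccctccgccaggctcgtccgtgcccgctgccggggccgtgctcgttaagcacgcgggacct
Dhcr7, chr7:143829964-143830263, plus strand, last in position of 3 listed starts: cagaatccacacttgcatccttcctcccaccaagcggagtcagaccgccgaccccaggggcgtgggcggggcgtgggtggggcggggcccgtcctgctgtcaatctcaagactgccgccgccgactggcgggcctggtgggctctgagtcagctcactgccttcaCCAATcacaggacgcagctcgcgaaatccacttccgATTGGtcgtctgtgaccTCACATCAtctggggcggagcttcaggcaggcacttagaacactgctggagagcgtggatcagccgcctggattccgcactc
Tm7sf2, chr19:6067801-6068100, minus strand: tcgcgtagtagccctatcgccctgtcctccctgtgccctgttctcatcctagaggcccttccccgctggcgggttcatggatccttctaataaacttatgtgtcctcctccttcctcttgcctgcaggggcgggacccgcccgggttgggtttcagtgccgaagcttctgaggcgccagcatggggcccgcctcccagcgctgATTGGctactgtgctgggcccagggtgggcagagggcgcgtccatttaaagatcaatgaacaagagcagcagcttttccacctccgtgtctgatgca
The table listed 7 promoters for 5 of the enzymes. Of the 3 for Dhcr7, the one printed held the most capitalised matches, 3, against 0 and 1 in the others. TCACNCCAC was found in 1 of these 7, in Hmgcs1 as TCACCCCAC with its first base 137 bases before the start site, and in 1.24% of all 32851 promoters. TCACNNCA was found in 4 of the 7, which belong to Hmgcs1, Cyp51 and Dhcr7, and in 13.8% of all promoters. Neither was found in the Lss promoter or in that of Tm7sf2. Any link between these letters and the changes in signal was not tested. CCAAT stood in 5 of the 7, at least 1 for each of the 5 genes, and in 37.4% of all promoters. TGACG, a cAMP response element core, was found in Cyp51 and Hmgcs1 and in 20.8% of all promoters, and is not capitalised above. These are letter matches in 1 window, and no binding was measured in this study.

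Fraction labels were set beside marker genes first. These lists were chosen with earlier results of these data known, so agreement with a label is not an independent check of it. All 9 pachytene markers were at least 4-fold higher in pachytene than in L/Z cells (8.70% of all genes were). All 8 measurable spermatogonial markers were lower (44.0% of all genes). Between L/Z cells and spermatogonia, however, 7 of the 9 spermatogonial markers were higher in the L/Z fraction (Dazl by 1.14, Uchl1 by 0.95), beside 24.1% of all genes. None was lower (22.2% of all genes), and Zbtb16 and Gfra1 stayed within the limit. The summed signal of the 9 was 12986 in L/Z cells and 7566 in spermatogonia. As a list, these markers thus did not bear out the label of the spermatogonia fraction. All 9 pachytene markers were below the floor in spermatogonia. The groups are called by their labels below. Somatic testis markers were present in the fractions and also moved between them. The 12 Sertoli markers, summed, gave a signal of 45850 in spermatogonia, 40279 in L/Z cells and 10757 in pachytene cells, against 30991 in whole testis. The 4 Leydig markers on the arrays, cells that use cholesterol for steroid hormones, summed to 7725, 4049 and 401 across the same 3 stages, against 2871 in whole testis. All 12 and all 4 were lower in pachytene than in L/Z cells, with Amh (Sertoli) and Cyp11a1 (Leydig) below the floor in pachytene cells. All 6 macrophage markers were higher (summed signal 3585 in pachytene and 1769 in L/Z cells), beside 30.0% of all genes. Of 8 peritubular and stromal markers, 6 were lower (summed signal 12330 and 19975), beside 44.0% of all genes. Col1a1 was higher, by 0.71 on the log2 scale, and Col3a1 stayed within the limit. The part of these somatic testis markers in the results below was not tested. All 5 hepatocyte markers on the arrays were above the floor in whole testis, with Alb at a signal of 3907 in whole testis and 17453 in the somatic pool, against 46.4 to 94.9 in the 3 fractions. The part of these transcripts in the whole testis comparisons below was not tested.

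In pachytene against L/Z cells, which sets one stage of meiotic prophase against the preceding one, 4 of the 7 enzymes fell, 1 rose and 2 stayed within the error. Dhcr7 fell 7.94-fold, Cyp51 at least 5.06-fold, Hmgcs1 3.98-fold and Lss 3.05-fold. Fdft1 rose 2.79-fold. Sqle and Tm7sf2 did not pass the limit of 0.41. In bulk samples such as these, fewer cells of a type and less RNA per cell cannot be told apart. Among all 13523 genes measured in this comparison, 44.0% were lower and 30.0% higher beyond the limit, so a count of 4 lower in 7 is close to the background. At 4-fold, 2 enzymes were lower (Dhcr7, Cyp51) against 9.33% of genes, and none was higher against 8.70%. The median difference of the enzymes was -1.61, that of all genes measured -0.22. Hmgcs1 lay just short of 4-fold. With the values as deposited it reached -2.33 and with quantile normalization -2.27, so that 3 enzymes passed 4-fold; with the floor at the 60th percentile none did, and with the mean over probe sets 1 did.

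**Figure D1:**
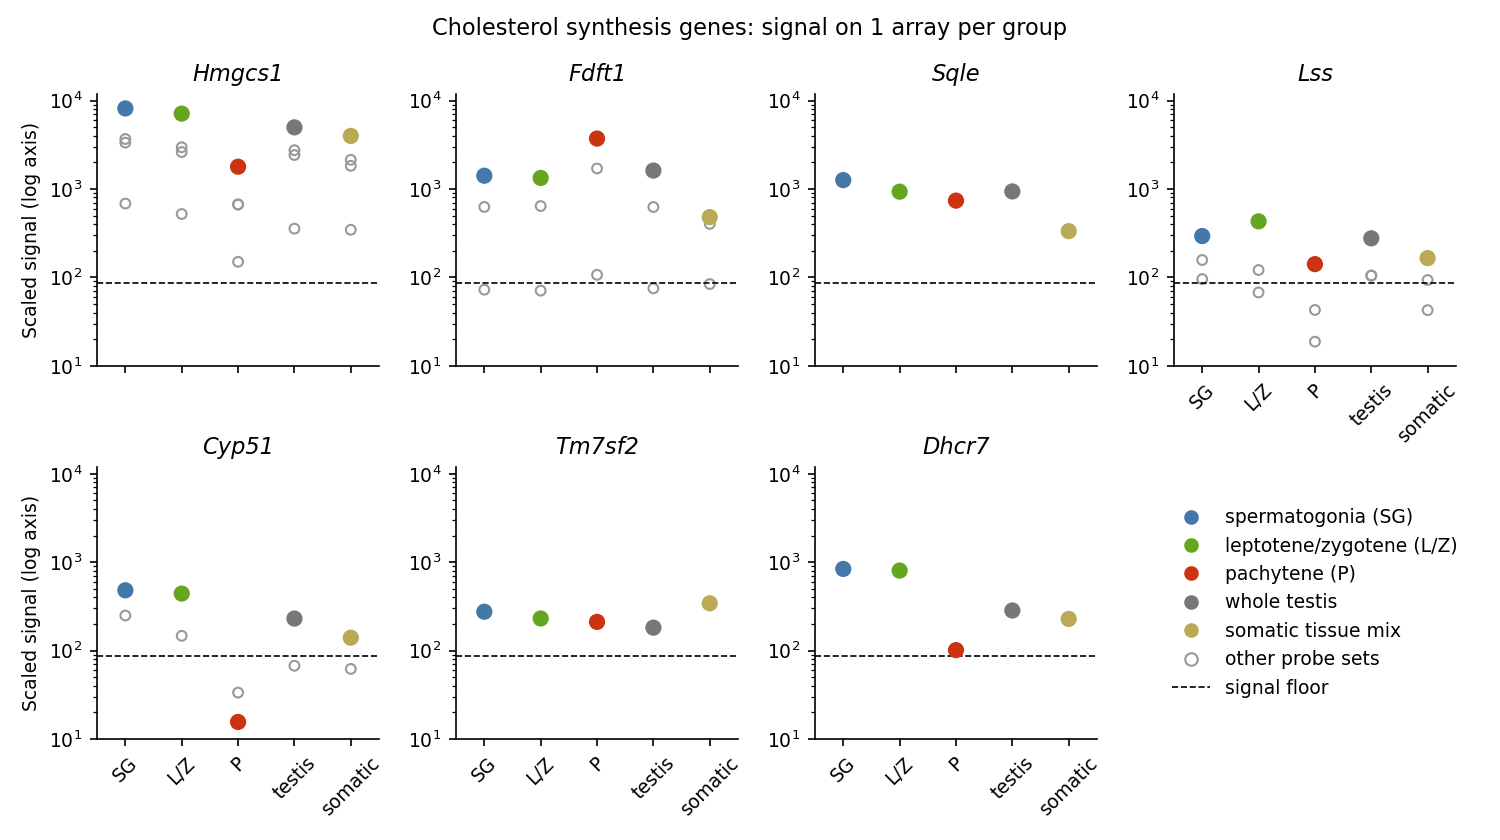
Scaled signal (log axis) of the 7 enzymes on the first array design, 1 array per group: spermatogonia (SG), leptotene/zygotene (L/Z) and pachytene (P) cells, whole testis and the somatic tissue mix. Filled points are the probe set used and open points the gene's other probe sets that were above the floor in some group; the dashed line is the floor of 87.2. Pachytene is the lowest group for Hmgcs1, Lss, Cyp51 and Dhcr7, and the highest for Fdft1.

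Hmgcs1 makes HMG-CoA, the substrate from which mevalonate is formed. Its signal was 8134 in spermatogonia, 7103 in L/Z and 1783 in pachytene cells, with 4967 in whole testis and 3977 in the somatic mix. With the chosen probe set, spermatogonia and L/Z cells were highest and did not differ beyond the error. Whole testis and the somatic mix came next and also did not differ, and pachytene cells were lowest, apart from all others. The pachytene minus L/Z difference was -1.99 ± 0.21. Its 3 other probe sets on the first design gave -1.97, -2.15 and -1.80 for the same difference. For L/Z minus spermatogonia they gave -0.354, -0.311 and -0.392, the first and last beyond the limit of 0.351.

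Hmgcs1 was the one enzyme with a probe set on both designs. On the second design its signal was 148 in spermatogonia and 106 in L/Z cells, and 17.2, 25.1 and 14.2 in pachytene cells, whole testis and the somatic mix, all 3 below the floor of 47.0. The order of stages was thus the same on both designs, with a bound of -1.17 for pachytene minus L/Z on the second. There, L/Z minus spermatogonia was -0.49, beyond the limit of 0.35. A limma fit over both designs, with the design as a block, covered 2610 genes. The 2 values of a group came from different probe sets on different designs. The SE and p of this fit therefore reflect how far differences disagreed between probe sets and designs. They are not known to measure variation between animals or cell preparations. Hmgcs1 fell in pachytene cells relative to spermatogonia, by 1.92 on the log2 scale (SE 0.42, limma adjusted p = 0.0254). This is the mean of -2.19 on the first design and -1.66 on the second, where the pachytene signal was set to the floor, so that the second value is a bound and the fitted size and its SE depend on the floor; the same holds for the next difference. In pachytene relative to L/Z cells the limma difference was -1.58 (SE 0.42) with an adjusted p of 0.058, which misses 0.05, although both designs gave the same sign. The L/Z minus spermatogonia difference was -0.34 (limma adjusted p = 1). Without the block, the limma adjusted p for pachytene minus spermatogonia was 1. Across all tested genes, 9.89% were called lower and 3.45% higher in pachytene than in spermatogonia, and 6.67% lower and 2.61% higher in pachytene than in L/Z cells. Between L/Z cells and spermatogonia limma called 0.00% in either direction, with 70 genes at an unadjusted p under 0.05. That Hmgcs1 call was lost when either spermatogonia array (limma adjusted p = 0.121 and 0.161), either L/Z array (0.0596) or the first pachytene array (0.0855) was left out; a group left with 1 array was then assumed to vary like the others.

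Fdft1 takes farnesyl diphosphate into the sterol branch. Its signal was 1410.3 in spermatogonia, 1330.1 in L/Z and 3711 in pachytene cells, with 1612 in whole testis and 480.1 in the somatic mix. Pachytene cells were highest and the somatic mix lowest, and the 3 groups between them did not differ beyond the error. Fdft1 was the single enzyme of the 7 that rose into pachytene: it was 1.48 ± 0.21 higher than in L/Z cells, at percentile 87.7 of the differences of all genes measured. The chosen probe set has a suffix that marks probes shared with other sequences. A second, plain probe set gave signals of 625, 639.9 and 1702 across the 3 stages, with 624 in whole testis and 402 in the somatic mix, and a pachytene minus L/Z difference of 1.41. Of its other 2 probe sets, 1 was above the floor in pachytene cells only (107) and 1 in no group; the mean over probe sets gave a pachytene minus L/Z difference of 0.80.

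Sqle, the epoxidase that is a controlled step of the pathway, gave 1258 in spermatogonia, 930.2 in L/Z and 738 in pachytene cells, with 937 in whole testis and 333 in the somatic mix. No neighbours among the first 4 groups in order differed beyond the error, and the somatic mix stood below them. L/Z cells were lower than spermatogonia by 0.44 on the log2 scale (error 0.18), and pachytene cells lower than spermatogonia by 0.77 (error 0.24). Pachytene minus L/Z was -0.33, with an interval from -0.74 to 0.07, and its sign turned to 0.03 with median scaling and to 0.09 with scaling to the shared probe sets.

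Lss closes squalene epoxide into lanosterol. Its signal was 293 in spermatogonia, 429.8 in L/Z and 141 in pachytene cells, with 276 in whole testis and 165 in the somatic mix. It was the only enzyme of the 7 that was higher in L/Z cells than in spermatogonia beyond the error, by 0.55 ± 0.18. That direction was not shared by its other probe sets, which gave -0.38 and, as a bound, -0.13. Both of these are plain probe sets, while the chosen one carries the suffix _s_at. Pachytene minus L/Z was -1.61 ± 0.21 with the chosen probe set. It was -1.04 with quantile normalization, which did not pass that setting's larger limit, -0.94 with the floor at the 60th percentile and -0.69 with the mean over probe sets. One of the others, with signals of 157, 121 and 18.7 across the stages, gave a bound of -0.47 in the same direction, and the other was below the floor in both groups.

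Cyp51 removes a methyl group from lanosterol. Its signal was 481 in spermatogonia, 441 in L/Z and 15.6 in pachytene cells, with 230.2 in whole testis and 139.9 in the somatic mix. It was the only one of the 7 enzymes below the floor in any group, and that group was pachytene. Spermatogonia and L/Z cells did not differ beyond the error, and each step down from L/Z cells to whole testis, somatic mix and pachytene cells did. The pachytene fold changes are therefore bounds: at least 5.06-fold lower than L/Z cells and at least 5.51-fold lower than spermatogonia. On the log2 scale the bound against L/Z cells, -2.34, became -0.97 with the floor at the 60th percentile and -1.03 with the mean over probe sets. A second probe set gave 249, 147 and 33.5 across the 3 stages, 67.4 in whole testis and 62.0 in the somatic mix. The last 3 of these 5 were below the floor. By this probe set L/Z minus spermatogonia was -0.76, beyond the limit of 0.35. Another probe set was below the floor in all 5 groups.

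Tm7sf2 reduces the product of Cyp51. Its signal was 275 in spermatogonia, 231 in L/Z and 211 in pachytene cells, with 182 in whole testis and 343 in the somatic mix. It had the narrowest range of the 7 enzymes, and no neighbouring pair in the order differed beyond the error. Pachytene minus L/Z was -0.13, with an interval from -0.54 to 0.28, and the sign turned with quantile normalization (0.39), median scaling (0.24) and scaling to the shared probe sets (0.29). Lbr, which encodes a second enzyme with the same reductase activity, had a signal of 842 in pachytene and 1187 in L/Z cells, a difference of -0.49.

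Dhcr7 carries out the last reduction to cholesterol. Its signal was 839 in spermatogonia, 804 in L/Z and 101 in pachytene cells, with 284 in whole testis and 228 in the somatic mix. Spermatogonia and L/Z cells did not differ beyond the error and stood above whole testis, and pachytene cells were the lowest group, close above the floor. Pachytene minus L/Z was -2.99 ± 0.21 and pachytene minus spermatogonia -3.05 ± 0.24, the largest changes among the enzymes measured above the floor in both groups. In rank, the pachytene minus L/Z difference lay at percentile 1.03 of all genes measured. It has 1 probe set.

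**Figure D2:**
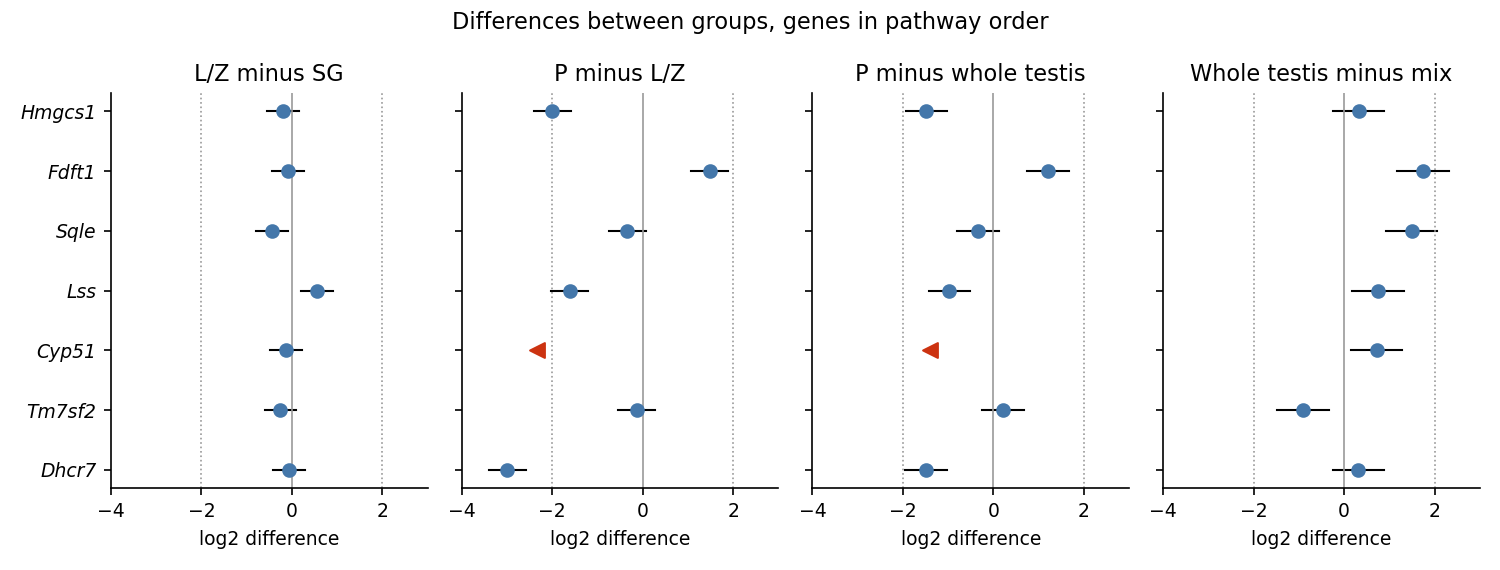
Log2 differences of the 7 enzymes in pathway order, from 1 array per group, for L/Z minus spermatogonia (SG), pachytene (P) minus L/Z, pachytene minus whole testis, and whole testis minus the somatic mix. Bars are the 95% limit from probe sets shared by both array designs, red triangles are bounds against the floor, and dotted lines mark 4-fold. Most enzymes lie near 0 in the first panel, and Dhcr7 lies farthest to the left in the second, with Fdft1 alone on the right beyond the error.

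Between L/Z cells and spermatogonia Lss was higher, Sqle lower, and 5 enzymes stayed within the limit of 0.35, by the chosen probe sets. Some other probe sets of Hmgcs1 and Cyp51 were lower in L/Z cells beyond that limit, as given above. Genes higher beyond the limit made up 24.1% and genes lower 22.2% of the 12919 measured, and none of the enzymes passed 4-fold (0.310% of genes higher, 0.279% lower). The 5 differences within the limit ran from -0.25 for Tm7sf2 to -0.06 for Dhcr7. Pachytene cells against spermatogonia share the pachytene array with the comparison above. There, 5 enzymes were lower (42.6% of genes), Fdft1 was 2.63-fold higher (29.8% of genes) and Tm7sf2 stayed within the limit. Dhcr7 at 8.29-fold, Cyp51 at 5.51-fold or more and Hmgcs1 at 4.56-fold lower passed the 4-fold call, as 12.1% of genes did; none was 4-fold higher (10.0% of genes).

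Against whole testis, pachytene cells had less Hmgcs1 (-1.48), Dhcr7 (-1.49), Lss (-0.97) and Cyp51 (at least 2.64-fold lower) and more Fdft1 (2.30-fold). Sqle and Tm7sf2 stayed within the limit of 0.46. The background was 38.2% of genes lower and 25.7% higher, with 4.39% lower and 2.35% higher at 4-fold, where no enzyme was. The earlier fractions lay above whole testis for several of the same enzymes. Spermatogonia had more Dhcr7 (1.56), Cyp51 (1.06), Hmgcs1 (0.71) and Tm7sf2 (0.60) than whole testis, 4 of 7 against a background of 25.0%, and none was lower (24.8%) or passed 4-fold (1.97% higher, 5.17% lower). L/Z cells had more Dhcr7 (2.83-fold), Cyp51 (0.94), Lss (0.64) and Hmgcs1 (0.52) than whole testis, 4 of 7 against a background of 25.8%. None was lower (25.8%) or passed 4-fold (1.19% higher, 4.15% lower). These counts are for the chosen probe sets. Other first-design probe sets of Hmgcs1 gave 0.47, 0.42 and 0.94 in spermatogonia (limit 0.54). In L/Z cells they gave 0.11, 0.11 and 0.55 (limit 0.46). The second-design probe set of Hmgcs1 gave bounds of 1.66 and 1.17. Other Lss probe sets gave 0.21 and, as a bound, -0.27 in L/Z cells, neither beyond the limit. The whole testis array is shared by these 3 comparisons and carried hepatocyte markers, whose part was not tested.

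Whole testis had more Fdft1 (1.75 ± 0.29), Sqle (1.49), Lss (0.74) and Cyp51 (0.72) than the pool of somatic tissues and less Tm7sf2 (-0.91), with Hmgcs1 and Dhcr7 (both 0.32) within the limit of 0.57. The background was 29.0% of genes higher and 30.6% lower, and no enzyme passed 4-fold (7.22% higher, 5.70% lower). For Fdft1 the plain probe set gave a smaller difference of 0.63. The other Lss probe sets gave 0.17 and, as a bound, 0.26, neither beyond the limit. Liver, a major site of cholesterol synthesis, is among the pooled tissues. Spermatogonia exceeded the somatic mix for 6 of the 7 enzymes (35.8% of genes), from Sqle at 1.92 to Lss at 0.83, with Tm7sf2 within the limit and none lower (32.4%). L/Z cells exceeded it for the same 6 (33.8% of genes), and Tm7sf2 was lower there, at -0.57 (32.0% of genes). Against the somatic mix, the other Lss probe sets gave 0.03 and, as a bound, 0.85 in spermatogonia. In L/Z cells they gave bounds of -0.10 and 0.47. No enzyme passed 4-fold in spermatogonia (3.91% higher, 6.51% lower) or L/Z cells (5.36% higher, 7.25% lower) against the somatic mix. Pachytene cells had 7.73-fold more Fdft1 than the somatic mix, a 4-fold call made for 11.6% of genes, and 2.22-fold more Sqle (28.1% of genes higher beyond the limit). The plain Fdft1 probe set gave 2.08 on the log2 scale for this difference. By contrast, Hmgcs1 (-1.16), Dhcr7 (-1.17), Tm7sf2 (-0.70) and Cyp51 (at least 1.60-fold lower) were lower (41.7% of genes), none of them 4-fold (12.2%).

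Across the 5 groups the enzymes did not follow 1 profile. Profiles were compared as the root mean square difference of log2 signals centred over the 5 groups, which share the same arrays and scaling. Among the 6 enzymes above the floor in every group, Hmgcs1 and Lss were closest to each other (0.40) and Fdft1 and Dhcr7 farthest apart (1.70). Cyp51, whose pachytene signal was set to the floor, lay at 0.27 from Dhcr7 and 0.29 from Hmgcs1, distances that depend on the floor. Among 6409 genes of the first design above the floor in every group, the nearest profiles to Hmgcs1 were those of Tspan4 (0.042) and Gamt (0.065), and to Fdft1 those of Kctd9 (0.082) and Clp1 (0.14). For Sqle they were Sesn2 (0.11) and Borcs7 (0.12), for Lss Ube2v2 (0.051) and Mad2l1 (0.057), for Tm7sf2 Ankzf1 (0.070) and Tmem250-ps (0.078), and for Dhcr7 Enah (0.12) and Sh3bp5 (0.13). For Cyp51, among 636 genes below the floor in pachytene cells alone, they were Spred1 (0.061) and Thoc2 (0.13), with the pachytene signals of all 3 set to the floor. None of these genes encodes an enzyme of the pathway.

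Of 18 synthesis enzymes read on the arrays, the 7 included, 11 were lower in pachytene than in L/Z cells, 3 higher and 4 within the limit, with a median of -0.91; of all genes measured, 44.0% were lower and 30.0% higher. With quantile normalization, where the error was 0.53 against 0.21, 6 were lower and 1 higher, beside 20.6% and 19.4% of all genes; no enzyme beyond the limit changed direction under any of the 4 other scalings. Genes of this and the next lists named beside those past 4-fold and the largest 2 changes were chosen after their values were seen. In the mevalonate stretch Fdps, which makes farnesyl diphosphate, had a signal of 791 in pachytene and 1982 in L/Z cells (-1.33), and Mvd (-0.86) and Pmvk (at least 1.95-fold lower) were lower, while Mvk (-0.12) and the isomerase Idi1 (0.05) stayed within the limit. Past squalene, the demethylating oxidase Msmo1 was at 81.0 in pachytene cells, below the floor, and at 831 in L/Z cells, at least 9.53-fold lower. The isomerase Ebp was at 255 in pachytene and 1306 in L/Z cells (-2.35), and Nsdhl was lower by 1.51 on the log2 scale. Msmo1, Ebp and Nsdhl act between Cyp51 and Dhcr7. Hsd17b7 (0.51) and Sc5d (0.46) were higher on the first design, but their probe sets on the second design gave -1.94 and, with pachytene cells below the floor, a bound of -0.59 for Sc5d, and limma called neither (adjusted p = 0.552 and 0.974).

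Of 9 measured genes of sterol sensing, in the same comparison, 6 were lower, 2 higher and 1 within the limit, with a median of -1.93, beside 44.0% of all genes lower and 30.0% higher. At 4-fold 4 were lower, beside 9.33% of all genes. Scap, the escort of SREBP, had a signal of 150.4 in pachytene and 2017 in L/Z cells (-3.75); on the second design it was at 41.8 in pachytene cells, below the floor, and 67.0 in L/Z cells, which gives a bound of -0.51, and limma did not call it (adjusted p = 0.109). Insig1, itself a sterol-responsive gene, was at 87.1 in pachytene and 888 in L/Z cells (-3.35), read on the second design. The proteases Mbtps2 (-2.68, second design) and Mbtps1 (-2.13) also passed 4-fold, and Srebf1 was lower by 1.93 on the log2 scale. Insig2 was higher, at 1232 in pachytene and 736 in L/Z cells (0.74). Of the uptake and transport genes, 7 of 8 measured were lower (44.0% of all genes), among them the HDL receptor Scarb1 at 317 in pachytene and 1368 in L/Z cells (-2.11) and the lysosomal lipase Lipa (-1.66). The gene within the limit was Lrp8, a lipoprotein receptor read close to the floor on the first design (72.4 in pachytene and 93.3 in L/Z cells); its second-design probe set, at 59.6 in pachytene and 289.8 in L/Z cells, gave -2.28, and limma did not call it (adjusted p = 0.211). Scarb1 is also a gene of steroid-making cells, and the Leydig markers fell in the same arrays, as given above.

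**Figure D3:**
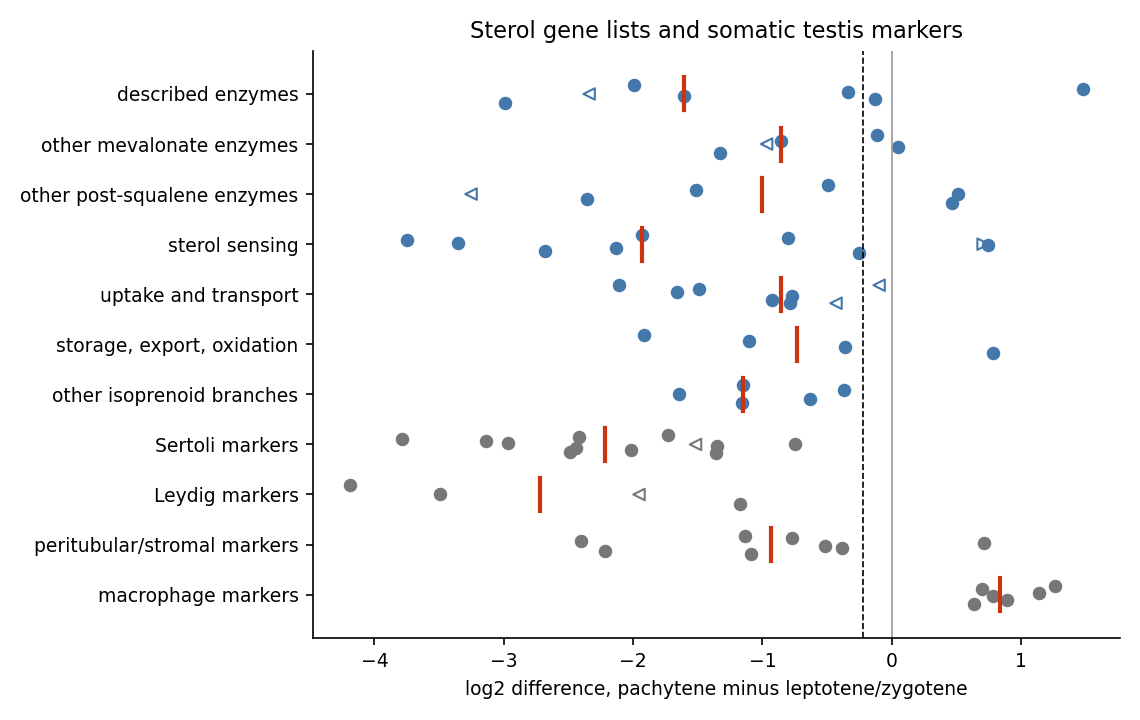
Log2 difference of pachytene minus L/Z cells for each gene of the sterol lists (blue) and of somatic testis marker lists (grey), from 1 array per group; open triangles are bounds against the floor, red bars the list medians, and the dashed line the median of all genes measured (-0.22). Sterol list medians lie between -1.93 and -0.73, and Sertoli and Leydig marker medians at -2.21 and -2.72.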

How the data were processed

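The authors deposited linear intensity values by probe set for 10 arrays, 5 of each design, made with GCOS 1 per the submitters' processing notes. For their scaling target and background correction, the sources used here give nothing. Biotin-labelled cRNA was hybridised, per the labels' protocols. Before scaling, the 2% trimmed means spanned 383 to 484 (first design) and 63.4 to 148 (second), and 42.7% to 64.2% of probe sets were above the floor.

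Probe sets were named through the platform annotation, with symbols updated by Entrez identifier. On the 2 designs 20380 and 14661 probe sets named 1 gene, and those naming several (691 and 245) or none (1555 and 7605) were left out. A gene was read from its probe set of highest mean log2 signal, on the first design where any there was above the floor (11773 genes, and 6420 from the second), and 15708 genes were above the floor in some group. Differences are log2 ratios of intensity within a design, set at the floor where 1 group was below it, and 10 pairs of groups were compared. With 1 array per group and design, no gene on 1 design has a test.

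limma 3.58.1 (R 4.3.3) was run on 2610 genes read on both designs, with the replicate number as a block. That number is the array design. Samples with the same number deviated together from their group means (correlations from 0.68 to 0.96). The designs read a gene with different probe sets, which by itself makes these deviations shared. The correlations therefore cannot show whether samples were paired. Calls used a Benjamini-Hochberg adjusted p under 0.05, over all these genes. Other steps used Python 3.11.15 with numpy 2.4.6 and pandas 2.3.3, and both procedures were tested on simulated data. The number of arrays limits the precision.

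The 7 genes and all gene lists were chosen with earlier results of these data known. All 7 were named with their values; of other lists, the rule named genes past 4-fold or the 1 or 2 largest changes beyond the limit, and for each of the 7 the 2 nearest profiles. Alternatives were other scalings, floors, probe set rules, a log2 of signal plus floor, each design alone, no block, no filter, and leaving out each array.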

Additional observations from a re-analysis of the deposited data

How the results depend on the processing

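Of 419 recomputed differences of the 7 enzymes, 309 moved by less than the error, 109 moved by more and 1 that had passed the limit took the other sign: Lss in L/Z minus spermatogonia was -0.13 with plain probe sets only. Of the others, 15 also changed sign, all of differences within the limit, among them those of Sqle and Tm7sf2 given in the report. Enzymes at least 4-fold lower in pachytene than in L/Z cells, 2 in the report, numbered 0 with the floor at the 60th percentile and 1 with the mean over probe sets; against spermatogonia, 3 in the report, they numbered 1 with that floor. The 1 enzyme at least 4-fold higher in pachytene cells than in the somatic mix became 0 with the mean over probe sets. A floor at that height replaces low pachytene signals, which shrinks the folds of Dhcr7 (-1.84) and Cyp51 (-0.97, a bound) in pachytene minus L/Z. Without replicate 1 or 2, that is on 1 design alone, these 3 counts ran from 0 to 2, from 0 to 3 and from 0 to 1, and the counts beyond the limit in pachytene against L/Z cells from 1 to 4 lower and from 0 to 1 higher; on the second design Hmgcs1 alone was read.

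Other scalings shifted the median of all genes in pachytene minus L/Z (-0.25 over genes above the floor in both) by 0.17 with quantile normalization, 0.30 with median scaling and 0.36 with scaling to the shared probe sets, and genes at least 4-fold higher and lower went to 1204 and 841, 1504 and 748, and 1535 and 604, against 1176 and 1262 in the report. Hmgcs1 in that comparison was -2.27, -1.63 and -1.57 with these 3. Calls by limma in pachytene against L/Z cells (242 with the replicate block) were 0 with no replicate block, 119 with quantile normalization and 140 with values as deposited, and ran from 0 to 295 with 1 array left out. Those in pachytene against spermatogonia (348) were 0 with no replicate block, 231 with quantile normalization and 228 with the floor at the 60th percentile, and ran from 0 to 449. Hmgcs1 was called in pachytene against L/Z cells only without pachytene replicate 2 (limma adjusted p = 0.0361), where the lone pachytene array was assumed to vary like the other groups, and in pachytene against spermatogonia it was also lost with no filter (limma adjusted p = 0.0512). The cause of these shifts was not tested.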

Other observations

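Of the 5 genes on the arrays for other isoprenoid products, 4 were lower in pachytene than in L/Z cells (44.0% of all genes were), among them Nus1, a dolichol synthesis subunit, with a signal of 308 in pachytene and 964 in L/Z cells (-1.64), and Coq2, of ubiquinone synthesis (-1.16). Nus1 was also read on the second design, where the difference was -0.11, and limma did not call it (adjusted p = 0.324). Of the 4 measurable genes of sterol export and oxidation, the efflux pump Abca1 had a signal of 399 in pachytene and 1503 in L/Z cells (-1.91), Abcg1 was lower by 1.10 on the log2 scale, and Cyp46a1, known for sterol oxidation in brain, was higher (232 in pachytene and 135 in L/Z cells, 0.78).

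In whole testis against the somatic mix, Idi1 was higher (823 in whole testis and 287 in the somatic mix, 1.52) and Fdps lower (507 in whole testis and 864 in the somatic mix, -0.77); they encode consecutive enzymes, and this pair was chosen after the values were seen. Stard4, a cytosolic sterol carrier, was at 149 in whole testis and 1259 in the somatic mix, 8.46-fold lower, and its probe set on the second design gave -1.20. Limma over both designs gave -2.14 (SE 0.47, adjusted p = 0.0676), which misses 0.05.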
